A study of Mus musculus with 35 samples.

Results

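The simple epithelial keratins are intermediate filament proteins that build the keratin network of single-layered epithelia, and 6 of their genes were followed here: Krt7, Krt8, Krt18, Krt19, Krt20 and Krt23. They were taken by gene name and account for 6 of the 53715 genes listed for back skin and 6 of the 49585 listed for tail skin, palate and tongue. The study sorted epithelial cells and sequenced their RNA in 35 libraries, which fall into 13 groups, 9 of them with 3 libraries and 4 with 2. All mice were C57BL/6J, 2 months old, and had the genotype K5-tTA/pTRE H2B-GFP. There the keratin 5 promoter drives a transactivator that switches on a green nuclear histone label in basal keratinocytes. Doxycycline in the chow stops that label, so cells that divide seldom keep it (label-retaining cells, LRC, slow-cycling) and cells that divide often lose it (nLRC, fast-cycling). Every group received it, for 2 weeks before skin was taken and for 10 days before oral tissue, so tissue and chase time cannot be told apart between tail and mouth. The groups were basal LRC and nLRC from back skin, tail skin, palate and tongue, spinous LRC and nLRC and granular cells from back skin, and hair follicle stem cells of the bulge from back and tail skin. The labels do not tie the libraries of one group to different mice, and a p-value here reflects only how far such libraries scatter, which may be technical.

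Keratin filaments form from pairs of a type I and a type II keratin. Krt8 and Krt7 are type II, and Krt18, Krt19, Krt20 and Krt23 are type I. The usual partners Krt8 and Krt18 are the first keratins of the embryo and persist in glands, gut and other simple epithelia, whereas stratified epithelium relies on Krt5 and Krt14 in its basal layer and on other pairs above it. In skin, Krt8, Krt18 and Krt20 mark Merkel cells, the touch-sensing cells of the epidermis, and Krt19 is known from hair follicle stem cells. Taste bud cells and salivary gland ducts are further sites of Krt8, Krt18 and Krt19.

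The members lie in 2 keratin gene clusters. Krt8 (ENSMUSG00000049382.10, chromosome 15, 101996698 to 102004482, minus strand, mm10) and Krt18 (ENSMUSG00000023043.7, chromosome 15, 102028180 to 102032027, plus strand) stand 23697 bases apart, and Krt18 is the exception of a type I gene inside the type II cluster. Krt7 (ENSMUSG00000023039.17, chromosome 15, 101411043 to 101430313, plus strand) lies in the same cluster. Krt19 (ENSMUSG00000020911.14, chromosome 11, 100140810 to 100148665), Krt20 (ENSMUSG00000035775.2, chromosome 11, 99428403 to 99438150) and Krt23 (ENSMUSG00000006777.7, chromosome 11, 99477974 to 99493137) lie in the type I cluster on the minus strand. Because Krt8 and Krt18 were read at unlike levels in the bulge, the sequence just upstream of each gene is given, from RefSeq on build GRCm38.p6 and 5′ to 3′ on the gene's own strand. Both runs end where the annotated gene begins, Krt8 at chr15:102004483-102004592 (minus strand) and Krt18 at chr15:102027966-102028179 (plus strand).
Krt8 upstream: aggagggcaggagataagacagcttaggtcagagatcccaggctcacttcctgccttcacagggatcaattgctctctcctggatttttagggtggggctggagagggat
Krt18 upstream: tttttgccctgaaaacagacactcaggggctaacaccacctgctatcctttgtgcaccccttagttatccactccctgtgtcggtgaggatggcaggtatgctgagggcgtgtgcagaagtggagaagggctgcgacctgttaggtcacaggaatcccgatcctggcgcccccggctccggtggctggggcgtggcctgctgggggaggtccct
The next pair shows the 2 members with a TATAAA match near the RefSeq start, marked in capitals, Krt8 at chr15:102004326-102004355 and Krt20 at chr11:99438165-99438194 (both minus strand).
Krt8 TATA window: ggcctcttctttTATAAAgggccttcgctg
Krt20 TATA window: tctcttgaactcTATAAAaggtcatctcca
RefSeq promoters of 300 bases were matched for 5 of the 6 members and searched on both strands for the TATA box (letters TATAAA), the GC box (letters GGGCGG), the AP-1 site (letters TGANTCA), the CCAAT box and the RUNX site (letters TGTGGT). The TATA box was found in the Krt8 window (2 overlapping matches, 1 on each strand) and once in the Krt20 window, and 14.2% of 27025 promoters hold it. Counted from the RefSeq start, the matches began at -3 and -1 in Krt8 and at -29 in Krt20. The Krt8 TATA window lies inside the annotated gene. The GC box was found 4 times in the Krt7 window and is held by 35.9% of promoters. The AP-1, CCAAT and RUNX motifs, which 7.93%, 37.9% and 16.9% of promoters hold, were in none of the 5 windows, and the Krt18 and Krt23 windows held none of the 5 motifs.

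Library depth ran from 9785944 to 20560481 reads on genes in back skin, from 8421582 to 14093720 in tail skin, from 11680595 to 15641556 in palate and from 11847897 to 13034075 in tongue. The keratinocyte genes Krt5 and Krt14 were high in all 13 groups, Krt5 at 3195 to 43028 TPM (deposited transcript levels scaled by gene length and depth). Cd34, a marker of bulge stem cells, stood at 48.6 to 693 TPM in the bulge libraries and at no more than 0.81 TPM in the others. Palate basal LRC replicate 1 held secretory gland genes that its partner lacked, and results that rest on it are given with and without it. The tables of back skin were made separately from the others, so levels set across them are side by side values without a test.

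The 6 members were minor keratins in these cells, and each had its own place. By mean TPM, Krt23 was highest in back granular cells, Krt8 in tail bulge, and Krt18 and Krt19 in palate basal LRC. The last 2 places rest on replicate 1 of that group (23.0 and 27.2 TPM), since replicate 2 had 1.10 and 1.06 TPM, below the back bulge means of 2.05 and 4.32 TPM. Krt7 stayed at or below 1.58 TPM and Krt20 at or below 0.40 TPM in all 35 libraries. The highest member value, 209 TPM for Krt23 in a granular library, compares with at least 3195 TPM for Krt5 in every granular library. Reads were found in 35 libraries for Krt19, 33 for Krt7, 29 for Krt23, 26 for Krt8, 22 for Krt18 and 11 for Krt20.

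**Figure D1:**
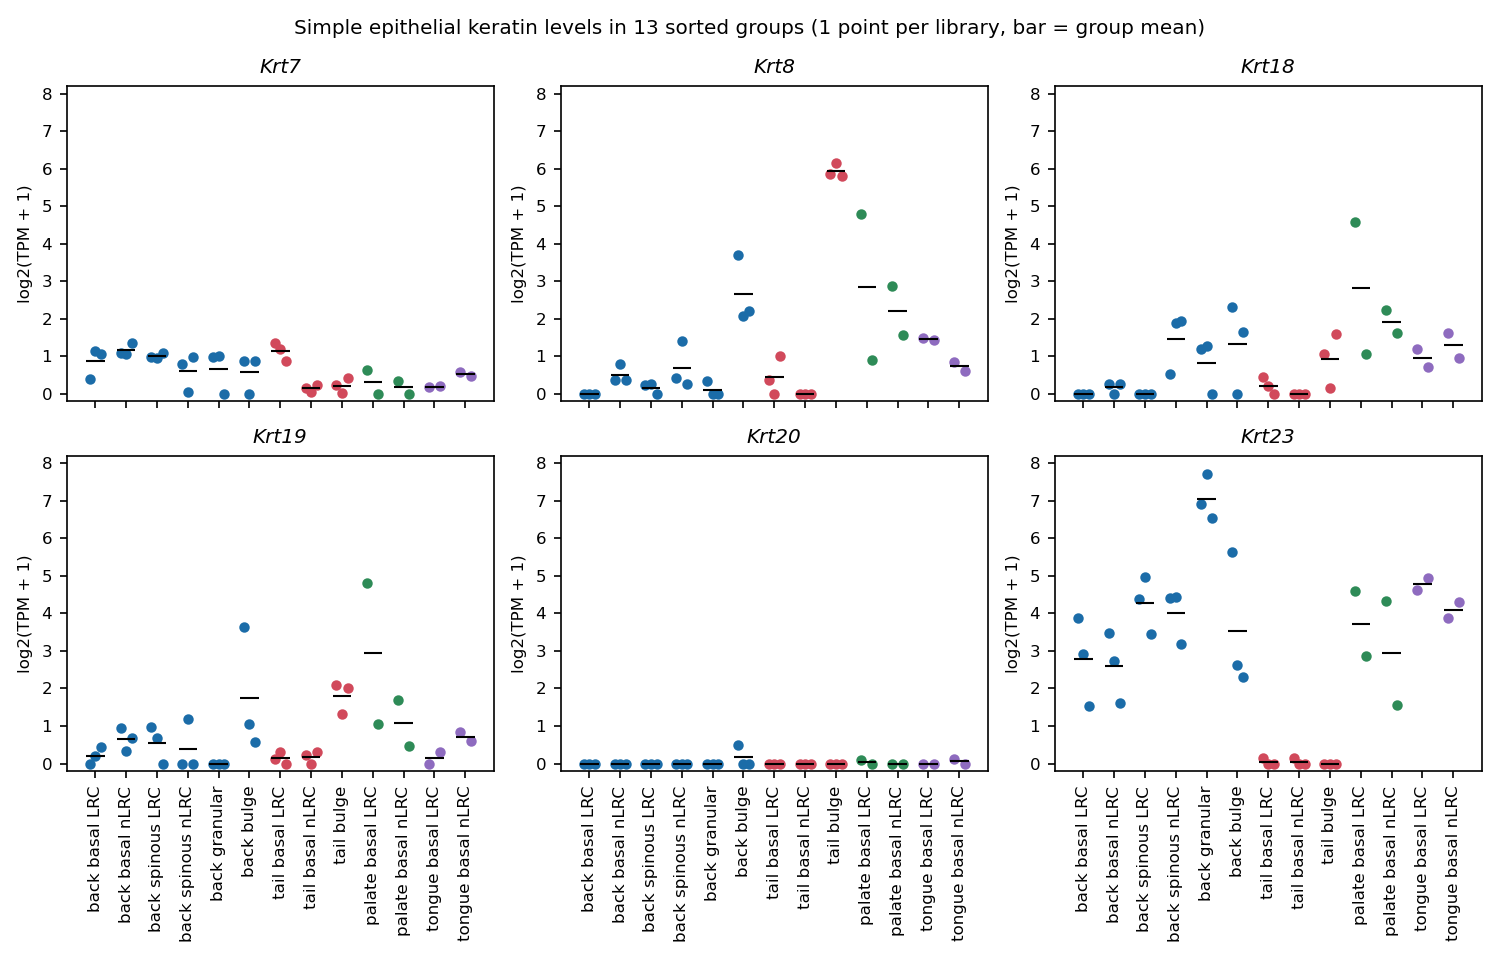
Level of each member in each group as log2(TPM + 1), with 1 point per library, a bar at the group mean and colours for back (blue), tail (red), palate (green) and tongue (purple). Krt8 peaks in tail bulge, Krt23 in back granular cells with values near 0 in tail, and a single palate LRC library carries the high Krt8, Krt18 and Krt19 values.

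Among the comparisons within back or tail skin, Krt8 gave the widest contrast. Its reads in the 3 tail bulge libraries were 620, 786 and 218, against 3, 2 and 11 in tail basal LRC and 0, 0 and 0 in tail basal nLRC. On the TPM scale the bulge libraries stood at 56.4, 70.0 and 55.0 (60.5 ± 8.30, SD, n = 3), and the tail basal libraries at 0 to 1.01. The groups did not overlap. The pooled rate, reads over scaled library size, was 255 times higher in bulge than in basal cells (95% counting interval 157 to 448), and edgeR's quasi-likelihood test gave a Benjamini-Hochberg adjusted p = 8.51e-06, kept in all 9 fits that left out a library. Against the nLRC group alone, with 0 reads, Krt8 was at least 193-fold higher in bulge, taking a floor of 3 reads per library. Krt8 entered the tail test through the bulge and LRC libraries, the only ones at the read minimum. Intervals and floors here and below cover counting error only.

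In tail bulge 2 members of the 3 tested rose against tail basal cells and none fell, and 24.6% of all 14993 tested genes were called in either direction and 14.2% were called higher. The other one was Krt19, which had 123, 43 and 36 reads in bulge against 11, 11 and 7 in basal LRC and 7, 1 and 10 in basal nLRC. Every bulge library lay above every basal library, with a log2 fold change of 3.41 ± 0.47 (SE, 10.6-fold, n = 3 and 6) and an adjusted p of 5.36e-04 in edgeR, kept in all 9 fits that left out a library. Only 32.2% of the Krt19 reads in tail bulge were estimated to be exonic, against 106% for Krt8, where values near 100 mean reads from spliced RNA. Krt7 did not pass (31 bulge reads, 189 basal reads, adjusted p = 0.578 in edgeR).

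The customary partner of Krt8 had few reads in the same bulge libraries. Krt18 had 9, 1 and 6 reads there, or 1.08, 0.12 and 2.01 TPM, against 7 reads in all 6 tail basal libraries. It fell below the read minimum and was not tested (without that minimum edgeR gave an adjusted p of 0.0417), and its pooled rate was 5.75 times that of basal cells (95% counting interval 2.24 to 16.5). Pooled Krt8 reads were 102 times Krt18 reads in tail bulge and 4.64 times in back bulge. It was 5 in back basal nLRC, on 10 and 2 reads, and 2.29 in tail basal LRC, on 16 and 7 reads. In the other groups with reads of both it was 1.42 in palate LRC, 1.78 in palate nLRC, 2.44 in tongue LRC, 0.565 in tongue nLRC, 0.441 in back spinous nLRC and 0.0909 in back granular cells. Per length, Krt8 and Krt18 lay close to each other in the high palate library (26.7 and 23.0 TPM), unlike in tail bulge. No count test was made of these ratios between groups.

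**Figure D2:**
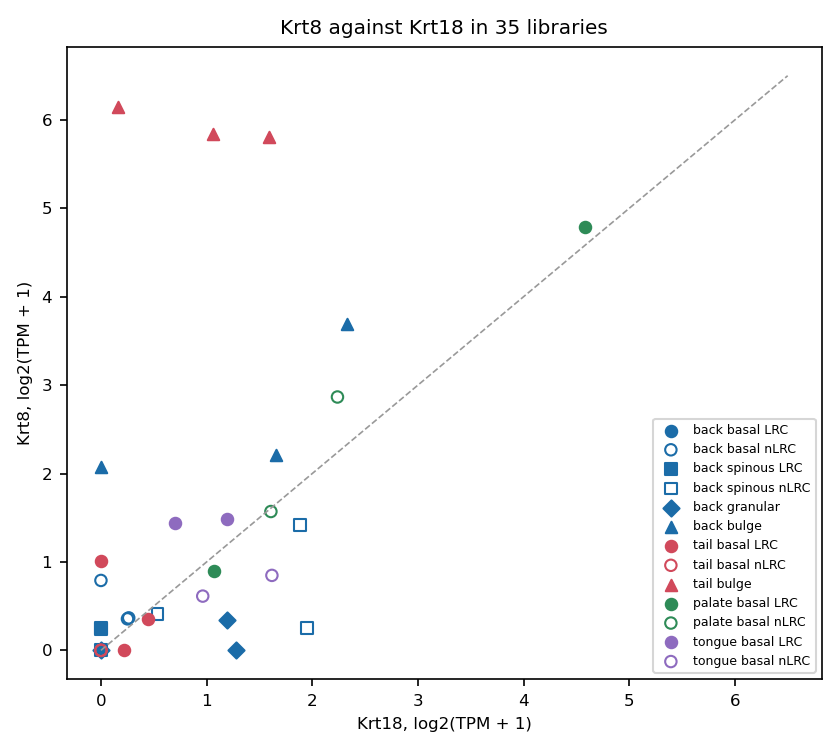
Krt8 against Krt18, both as log2(TPM + 1), with 1 point per library, open symbols for nLRC and a dashed line of equal level. The 3 tail bulge libraries stand at 55.0 to 70.0 TPM of Krt8 with no more than 2.01 TPM of Krt18, far above the line on which the high palate library nearly lies.

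Krt8 was also higher in bulge than in basal cells of back skin, at lower levels than in tail bulge. Krt8 had 71, 22 and 23 reads in back bulge (11.96, 3.21 and 3.63 TPM), 0, 0 and 0 in basal LRC and 2, 6 and 2 in basal nLRC, with no overlap. The pooled rate was 30.9 times higher (95% counting interval 16.2 to 66.2), with an edgeR adjusted p of 1.74e-04 that held in all 9 left-out fits. Of 5 members tested, 3 rose (Krt8, Krt18 and Krt23) and none fell, beside 26.3% of all 16574 genes called in either direction and 15.7% called higher. Krt8 and Krt18 each reached the read minimum in only 4 of 18 back libraries, bulge and upper-layer ones, and entered the test only through those.

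Krt18 in back bulge had 15, 0 and 10 reads against 2 in all 6 basal libraries. Its pooled rate was 33.3 times higher (95% counting interval 8.31 to 290) with an edgeR adjusted p of 0.0193, but bulge replicate 2, at 0, overlapped the basal libraries and the call was lost without bulge replicate 1. Krt23 read 262, 31 and 25 times in bulge, and its rise of 1.83 ± 0.60 (log2, SE, n = 3 and 6, edgeR adjusted p = 0.0333) was lost in 6 of 9 fits that left out a library. Without bulge replicate 1 the change was 0.75 ± 0.70 with an adjusted p of 0.431. Krt19 had 73, 7 and 10 bulge reads and missed the threshold (log2 1.91 ± 0.76, adjusted p = 0.0732 in edgeR).

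Merkel cells are the epidermal cell type best known for Krt8, Krt18 and Krt20, so their other markers were read in the same libraries. Atoh1, the factor Merkel cells depend on, had 2 reads in all 35 libraries, both in tail basal LRC and none in a bulge library. Sox2 and Pou4f3 had 0 reads in both bulge groups, and Isl1 had 1. Krt20 had 0 reads in tail bulge and 5 in back bulge. Cck, a peptide gene that was among the 15 markers listed, did move with Krt8: it had 38, 136 and 22 reads in tail bulge and 67, 6 and 100 in back bulge, and 0 in the basal libraries of both skins. The summed TPM of the 15 Merkel markers was 5.44 to 13.3 in tail bulge against 0.15 to 2.11 in tail basal cells, and 1.39 to 27.3 in back bulge against 0.12 to 1.53 in back basal cells. Cck alone reached 12.6 TPM in tail and 20.4 TPM in back libraries, so these sums largely follow that gene. Of the Merkel markers tested, 2 of 4 rose in tail bulge and 1 of 3 in back bulge. The 5 endothelial markers moved too, with sums of 6.29 to 41.6 TPM in tail bulge and 9.44 to 314 TPM in back bulge, against at most 0.69 TPM in basal cells. Of the endothelial markers tested, 4 of 4 rose in each bulge. Fibroblast markers rose as well (3 of 4 in back, 2 of 2 in tail), as did melanocyte (6 of 6), upper follicle (7 of 8) and sebocyte markers (6 of 11) in back bulge. In tail bulge 1 of 3 melanocyte and 2 of 8 upper follicle markers rose, and 3 sebocyte and 4 upper follicle markers fell. The part of such cells in the Krt8, Krt18, Krt19 and Krt23 values was not tested. In bulk samples, fewer cells of a type and less RNA per cell cannot be told apart.

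Outside the members, the genes of the keratin network did not rise in bulge. Of 14 network partners listed (plakins, plakophilins and others that bind keratin filaments), 12 were tested in tail skin, where 0 rose and 5 fell, with a median log2 change of -0.31 beside -0.01 for all genes. Those named were Pkp1 and Ppl, a desmosome plaque protein and a plakin, which fell by 1.08 and 1.14 on the log2 scale. In back skin 0 rose and 2 fell of 14. Of all genes tested, 24.6% were called in tail bulge and 26.3% in back bulge in either direction, and 14.2% and 15.7% were called higher. Of the regulators tied to simple keratin genes, 3 rose and 5 fell of 13 in tail bulge, and 0 rose and 7 fell of 14 in back bulge. Klf5, a Krüppel-like factor of epithelial cells, fell by 3.85 in tail bulge and by 2.72 in back bulge, both log2.

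In tail skin 1 member differed between slow and fast basal cells. Krt7, which pairs with type I keratins in ducts and glands, had 76, 54 and 42 reads in tail basal LRC against 6, 5 and 6 in nLRC. All LRC libraries lay above all nLRC libraries. The level was 3.95 CPM in LRC and 0.497 CPM in nLRC (counts scaled to depth by TMM), a log2 fold change of 2.96 ± 0.46 (SE, 7.81-fold, n = 3 each) with an edgeR adjusted p of 0.00517. It was kept in all 7 left-out fits, while limma on log2(TPM + 1) gave an adjusted p of 0.0659. Krt7 was 1 of 3 members tested, and 4.6% of all 14993 genes were called in either direction and 3.12% were called higher. It entered the test through LRC and bulge libraries alone, no nLRC library reaching the read minimum. Sox9 and Krt15, known from follicle cells, also stood higher in these LRC libraries (46.8 to 79.6 against 7.30 to 8.99 TPM for Sox9, and 1545 to 2993 against 316 to 593 TPM for Krt15). Of the listed markers, 7 of 10 bulge and 7 of 8 upper follicle markers rose in LRC, and 0 fell in either list. The part of such cells in the Krt7 value was not tested. In tail bulge itself Krt7 had only 11, 9 and 11 reads.

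Krt8 ran the same way in tail basal cells without passing. Its 3, 2 and 11 LRC reads against 0 in all nLRC libraries gave at least a 1.49-fold difference and an edgeR adjusted p of 0.147. DESeq2 and the fit without a read minimum called it. Krt19 did not pass (29 and 18 reads, adjusted p = 0.747 in edgeR), and Krt18, Krt20 and Krt23, with 7, 4 and 3 LRC reads, were not tested.

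Between slow and fast cells of the back basal layer 0 of 5 members tested passed, beside 0.235% of all genes. Krt7 had 24, 55 and 38 reads in LRC and 45, 37 and 58 in nLRC, and the interlaced values gave an edgeR adjusted p of 1. Krt8 had 0, 0 and 0 reads in LRC and 2, 6 and 2 in nLRC, an arrangement without overlap but with an adjusted p of 0.502. Krt23 levels were 7.37 ± 5.91 and 5.95 ± 4.03 TPM (SD, n = 3 each). For all genes, edgeR called 39 in this comparison (802 at an unadjusted p under 0.05) and DESeq2 called 227.

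In the spinous layer 1 of 5 members passed, Krt18, which was lower in LRC, where 15.5% of all genes were called in either direction and 8.63% were called lower. It had 0, 0 and 0 reads in spinous LRC and 2, 21 and 11 in spinous nLRC, at least 4.09-fold lower, with an edgeR adjusted p of 0.0394. The call was lost in 5 of 7 fits that left out a library, up to an adjusted p of 0.124. Krt18 entered the test through spinous nLRC, granular and bulge libraries alone, no spinous LRC library reaching the read minimum. Sebocyte markers moved with it, their 11 genes summing to 643 to 663 TPM in LRC and 3531 to 7775 TPM in nLRC, as did Cck (0 and 45 reads). Their part in the Krt18 value was not tested. Krt8 (1, 1 and 0 against 3, 11 and 1 reads, adjusted p = 0.152) and Krt7 (44, 42 and 42 against 17, 19 and 19 reads, adjusted p = 0.313) did not pass in edgeR although Krt7 ranges were apart.

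For the difference of the LRC effect between the spinous and basal layers, edgeR called 0 of 5 members (lowest adjusted p = 0.717, for Krt7), beside 0.392% of all genes (2032 at an unadjusted p under 0.05, and 590 by DESeq2). Among other genes of spinous LRC against nLRC, 7 of 14 network partners rose in LRC and 0 fell, beside 15.5% of all genes called in either direction. Evpl and Jup were among those that rose (log2 1.45 ± 0.29 and 1.13 ± 0.23, SE). These encode envoplakin and plakoglobin. Of the 14 regulators, 7 rose and 0 fell, with Fosl1, an AP-1 subunit, at 2.33 ± 0.46.

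Krt23 was the member of the upper layers of back skin. It had 56, 48 and 9 reads in basal LRC, 60, 42 and 12 in basal nLRC, 118, 191 and 53 in spinous LRC, 128, 117 and 43 in spinous nLRC, and 798, 1250 and 495 in granular cells. Within each replicate number the order was basal, spinous, granular, and replicate 3 was the lowest in every layer. Granular libraries stood at 119, 209 and 92.1 TPM (140 ± 61.1, SD, n = 3), above every other library of the series for this gene.

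The granular rise over spinous cells was 2.93 ± 0.57 (log2, SE, 7.64-fold, n = 3 and 6), with an edgeR adjusted p of 0.00750. Krt23 alone of 5 members passed, beside 4.01% of all genes in either direction and 2.47% called higher. The ranges did not overlap. Without granular replicate 2 the adjusted p was 0.0625, and with the replicate number as a block it was 2.23e-04. The rise of spinous over basal cells was smaller, 1.72 ± 0.52 (log2, SE, 3.29-fold, n = 6 each), with an adjusted p of 0.0471 in edgeR. There was no overlap in CPM, but the TPM ranges overlapped (spinous libraries from 8.16, basal libraries up to 13.62). Krt23 was again 1 of 5 members, beside 9.07% of all genes in either direction and 4.9% called higher. The call was kept in only 3 of 13 fits that left out a library (adjusted p 0.0358 to 0.150). With the replicate block the edgeR adjusted p was 0.00156.

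**Figure D3:**
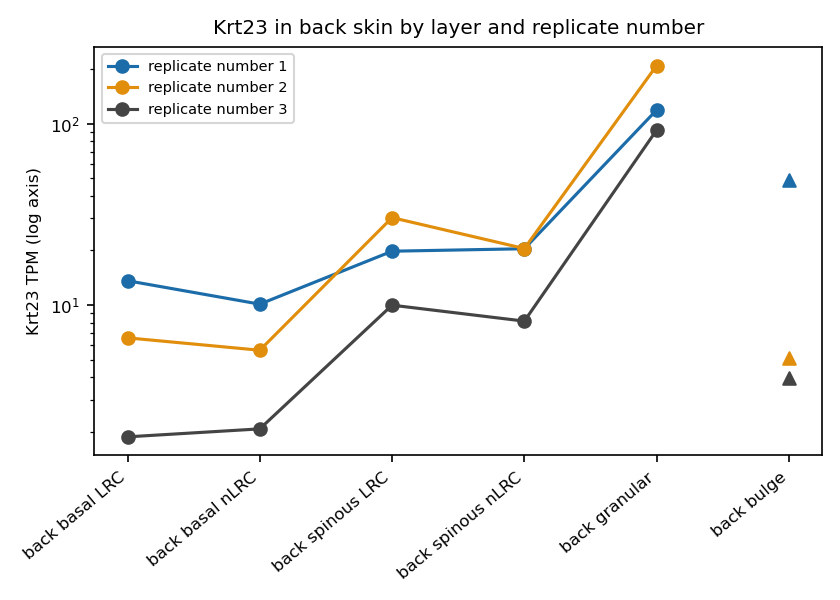
Krt23 in TPM on a log axis in back skin groups, with lines joining libraries of the same replicate number and triangles for bulge. In each number the value climbs from basal to granular cells, to 92.1 to 209 TPM, and bulge replicate 1 stands apart at 48.8 TPM.

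Among other genes of simple epithelia, 5 of 15 tested rose between spinous and granular cells, 0 fell and 10 did not pass, beside 2.47% of all genes called higher. Those that rose included Epcam, an adhesion protein (log2 1.48 ± 0.18, SE), and the tight junction genes Cldn4 (2.81 ± 0.34) and Cldn3 (3.34 ± 0.88). The median over the list was 0.62, beside -0.01 for all genes. The other 4 tested members did not pass in either layer comparison. Krt18 had 34 spinous reads, all from nLRC, against 2 in basal cells, and 16, 6 and 0 in granular cells. Upper follicle markers summed to 16719 to 25470 TPM in the granular libraries, and their part in the Krt23 value was not tested. In tail skin Krt23 was at or near 0, with 4 reads in 6 basal libraries and 0 in 3 bulge libraries.

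Oral basal cells carried Krt23 where tail basal cells did not. It had 368 and 91 reads in palate LRC, 313 and 23 in palate nLRC, 264 and 424 in tongue LRC and 150 and 210 in tongue nLRC. Against the 4 reads of tail basal cells the pooled rate was 278 times higher in palate (95% counting interval 108 to 1024) and 385 times higher in tongue (150 to 1415). The edgeR adjusted p values were 5.48e-06 and 2.00e-06, kept in all 10 and all 12 left-out fits. Both comparisons share the tail libraries, and Krt23 and Krt18 entered them through oral libraries alone, no tail library reaching the read minimum.

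Of 5 members tested, 4 were higher in palate than in tail basal cells, beside 26% of all 16614 genes called in either direction and 13.9% called higher. Krt8 had 360 and 11 reads in palate LRC and 86 and 26 in nLRC against 16 in all tail basal libraries, a pooled rate 42.3 times higher (95% counting interval 25.8 to 74.5, edgeR adjusted p = 6.65e-04). Krt18 had 251 and 11, then 42 and 21, against 7 in tail, a rate 65.0 times higher (31.2 to 163, adjusted p = 6.11e-04). Both calls held in all 10 left-out fits. Krt19 had 392 and 16, then 36 and 5, against 47 in tail, and its difference of 2.81 ± 0.68 (log2, SE, n = 4 and 6, adjusted p = 0.00845 in edgeR) became 1.16 ± 0.64 with an adjusted p of 0.231 without palate LRC replicate 1, and 0.0751 without nLRC replicate 1. Krt7 did not pass (51 and 189 reads, adjusted p = 0.371), but without palate LRC replicate 1 it was called lower (log2 -2.79 ± 0.80, adjusted p = 0.0292).

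In tongue 3 of 5 tested members were higher than in tail basal cells, beside 27.3% of all genes in either direction and 13.6% called higher. Krt18 had 10 and 6 reads in LRC and 16 and 7 in nLRC, a pooled rate 8.18 times that of tail (95% counting interval 3.62 to 21.7, edgeR adjusted p = 0.0189). Krt8 had 18 and 21 in LRC and 8 and 5 in nLRC, a rate 4.77 times higher (2.68 to 8.96, adjusted p = 0.0406), but tail LRC replicate 3 overlapped and the call held in 3 of 12 left-out fits. Krt19 (23 reads, adjusted p = 0.625) and Krt7 (57 reads, adjusted p = 0.619) did not pass. Beside the members, 8 of 14 tested simple epithelium genes rose and 0 fell in tongue, and 5 rose and 1 fell in palate, with the transcription factor Elf3 at 3.77 ± 0.35 and 3.92 ± 0.35 (log2, SE).

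Tongue and palate differed in 1 of 5 members by the test, Krt19, beside 9.62% of all genes in either direction and 4.71% called lower. Its 3, 3, 10 and 7 tongue reads lay 3.43 ± 0.90 below palate on the log2 scale (SE, n = 4 each, edgeR adjusted p = 0.0440). The call was lost in 6 of 8 fits that left out a library. Without palate LRC replicate 1 the difference was -1.73 ± 0.65 (adjusted p = 0.177). Krt8 and Krt18 were just beyond the threshold (adjusted p = 0.0505 and 0.0693) and at 0.219 and 0.350 without that library. Krt23, at 12.5 CPM in palate and 20.2 CPM in tongue, had an adjusted p of 0.514.

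No member passed between LRC and nLRC in palate, in tongue or in the difference of those effects. For palate, edgeR called 0% of all 14923 genes (1082 at an unadjusted p under 0.05, and 19 by DESeq2). Without palate nLRC replicate 1 it called 1601 genes, none of them a member. For tongue it called 0.0067% (1 gene, 696 at an unadjusted p under 0.05, and 101 by DESeq2). For the difference it called 0% (854 at an unadjusted p under 0.05, and 46 by DESeq2), and 488 genes without palate nLRC replicate 1, none of them a member. In tongue the ranges of Krt23 (26.7 ± 4.38 TPM in LRC, 16.1 ± 3.57 in nLRC, SD, n = 2 each) and Krt8 (1.75 ± 0.05 and 0.67 ± 0.19) did not overlap, at adjusted p = 1 for both in edgeR. In palate both nLRC libraries lay between the 2 LRC libraries for Krt8 (6.29 and 1.97 against 26.7 and 0.86 TPM) and Krt18 (3.72 and 2.05 against 23.0 and 1.10 TPM).

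Gland genes split the palate libraries in a like way. Palate LRC replicate 1 had the most Krt8, Krt18, Krt19, Krt20 and Krt7 reads of the oral libraries (360, 251, 392, 17 and 36). It also had 3817 reads of Muc5b, a gel-forming mucin of mucous glands, against 1, 43 and 0 in the other 3 palate libraries, 239 of Muc19 and 103 of Aqp5, the water channel of secretory cells. Dcpp1, a salivary gene, had 197 reads in palate nLRC replicate 1 and 0 elsewhere. The 10 gland markers summed to 0.55 and 46.3 TPM in the palate LRC libraries, 0.24 and 44.0 TPM in nLRC, and 0.26 to 0.77 TPM in tongue. Their part in the palate values was not tested. Without LRC replicate 1, Krt8 and Krt18 lay above tail by log2 4.95 ± 0.83 and 5.21 ± 0.93 (SE, edgeR). Palate nLRC replicate 1, with its 197 Dcpp1 reads, stayed in that fit. The fit therefore does not separate gland from basal cells.

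**Figure D4:**
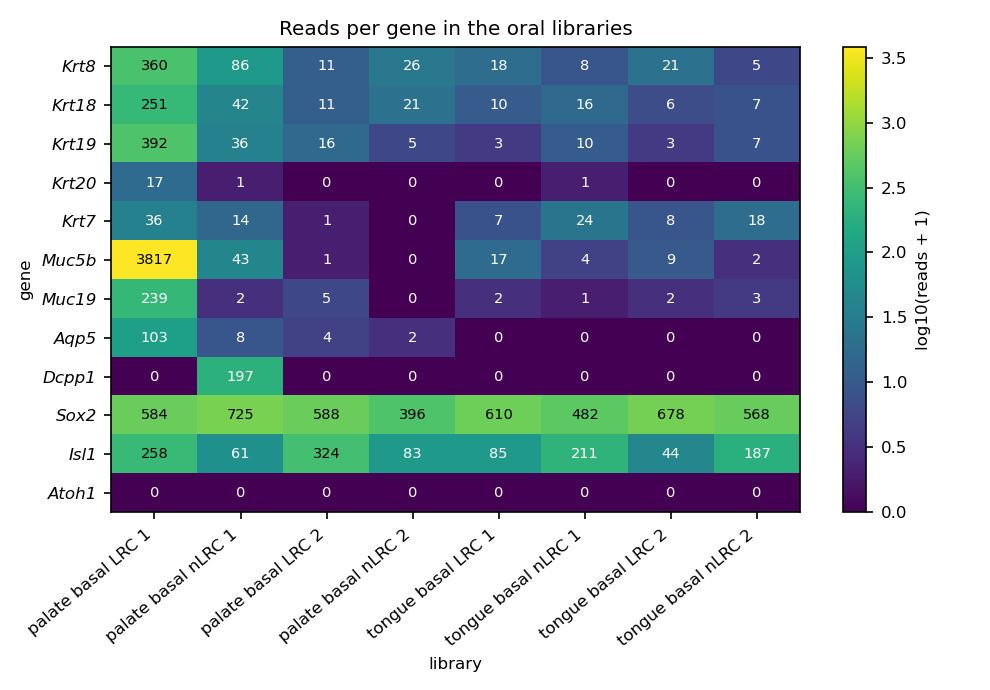
Reads of 5 members, 4 gland genes and 3 Merkel factors in the 8 oral libraries, coloured by log10(reads + 1) with the read count printed in each cell. Palate LRC replicate 1 holds both the highest Krt8, Krt18 and Krt19 counts and 3817 Muc5b reads, whereas Sox2 is spread over all 8 libraries and Atoh1 is at 0.

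Of the Merkel factors, Sox2 and Isl1 were also read in the mouth. Sox2 had 396 to 725 reads in each of the 8 oral libraries and Isl1 44 to 324. Atoh1 and Pou4f3 had 0 there, and Krt20 at most 17. On the TPM scale Sox2 ranged from 26.3 to 53.2 over these libraries, in which Krt8 ranged from 0.53 to 26.7. Of the 4 defining taste markers, Trpm5, Gnat3 and Pkd2l1 had at most 5, 15 and 8 reads in any library, and Pou2f3, a factor of taste and also of skin keratinocytes, was read in all 35. The other listed taste genes included some with many reads, such as Itpr3, at 50.8 to 91.1 TPM in the oral and 100 to 746 TPM in the skin libraries, and Tas1r3, read 11 to 34 times in each oral library. All 12 taste genes summed to 54.4 to 101 TPM in oral libraries, below the 118 TPM or more of every skin library. Itpr3 made up most of the oral sums, and Pou2f3 reached 324 TPM in back skin. These sums therefore do not measure taste cells. Gland and taste cells both express Krt8, and the share of each was not tested.

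Krt20 was barely detected. It had 42 reads in 11 libraries, with an estimated 8.90% of them on exons, and passed the read minimum in no comparison. A library with 0 reads allows up to 0.141 to 0.613 CPM, depending on its scaled library size. Over all libraries the estimated exon share was 105% for Krt8, 93.6% for Krt18, 78.5% for Krt23, 65.6% for Krt19 and 64.5% for Krt7. Total reads of Krt19 in tail basal cells were mostly outside exons (10.6% exonic in LRC, 22.4% in nLRC), against 93.6% in palate LRC.

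**Figure D5:**
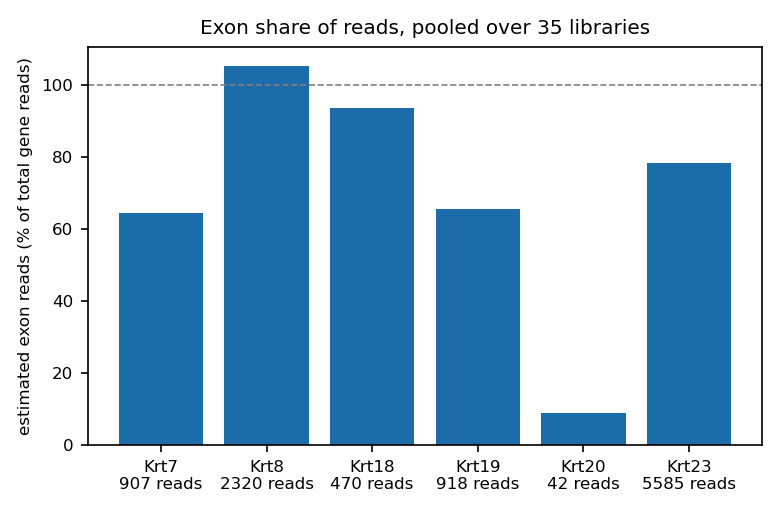
Estimated exon reads as a percentage of total gene reads for each member, pooled over 35 libraries, with a dashed line at 100%. Krt8 and Krt18 lie near 100%, Krt7, Krt19 and Krt23 between 64.5 and 78.5%, and Krt20 at 8.90% of 42 reads.

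The genes whose levels ran most like each member were found by the smaller of 2 Pearson correlations of log2 CPM, over 18 back libraries and over 17 others, among 9310 genes. For Krt23 they were Myo5b, Klhl25, Bspry, Pik3c2b and Ptgr1, at 0.88 to 0.82. Krt7 was nearest to Fto, Ssbp2, Pibf1, Ccdc171 and Myo1e, at 0.77. Krt19 was nearest to St3gal4 (0.73), B3glct, Elk3, Fbxo21 and Pomt2, and Krt18 to Gclm (0.71), Apobec1, Gramd1a, Ctnnd2 and Dapk1. Krt8 and Krt20 had too few libraries with 10 reads for this. Between members, Krt8 and Krt19 had r = 0.71 over the back libraries and 0.79 over the others, and Krt8 and Krt18 had 0.38 and 0.51. These points share libraries, depth and groups and serve as description.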

How the data were processed

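RNA from sorted cells was made into libraries with a stranded total RNA low-input kit, per the labels' protocols. The genome build is mm10, per the submitters' processing notes, while the aligner is not given in the sources used here, nor the counter. Whether counting used strand is not stated, so Krt7 and Krt8, which overlap genes on the other strand, are uncertain to that extent. For each library and gene the authors deposited RPKM, TPM and the count of total gene reads. The deposited counts hold intron reads, and exon reads were estimated here as RPKM × exon length, calibrated on genes with 1 exon. This estimate was added after seeing the data.

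Counts were scaled by TMM, filtered with filterByExpr (at least 10 reads, total at least 15) and tested by quasi-likelihood in edgeR 4.0.16 under R 4.3.3, with Benjamini-Hochberg adjustment over all genes and a threshold of 0.05. Fits held 18 back, 9 tail, 8 oral or 14 tail and oral basal libraries. Alternatives were DESeq2 1.42.0, limma 3.58.1 on log2(TPM + 1), other scaling, no filter, a replicate block, only the groups compared, and leaving out libraries. Where groups have the same replicate numbers, same-numbered libraries deviated together in back layers (r = 0.11 to 0.33) and in tail LRC and nLRC (0.284 to 0.585), which was taken as pairing. Bulge comparisons were not taken as paired, since at least 1 correlation of bulge with a basal group lay under 0.1 in each skin, nor were oral ones, which have 2 pairs at most. On simulated data for tail bulge against basal (14654 genes), 99% of genes changed by log2 2 and 74% of those changed by log2 1 were recovered. For LRC against nLRC the recovery was 93% and 25% in back basal cells (16169 genes), 99% and 63% in tail (14672 genes) and 98% and 37% in tongue (14559 genes). Changes were put only into genes above a set mean CPM. Krt7, Krt18, Krt19 and Krt20 lay below that level on average in these fits. So did Krt8 in the back and oral fits and Krt23 in the tail fit. The rates do not cover members in fits where they lay below it.

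The members, the lists and the rule for named genes were chosen with earlier results of these data known. Named are all 6 members, up to 4 genes of a list with the smallest p, the defining Merkel and taste markers, and the 5 genes most like each member. Cck, Sox9, Krt15, the gland genes and Cd34 were named after their values were seen.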

Additional observations from a re-analysis of the deposited data

How the results depend on the processing

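The number of members past the test stayed the same under other settings except as follows, and no result changed direction past the threshold. Spinous LRC against nLRC gave 0 with limma and 0 with only the groups compared (1 as reported). Spinous against basal gave 0 with limma. Back bulge gave 1 with limma and 1 with only the groups compared (3 as reported). Tail LRC against nLRC gave 2 without the read minimum, 2 with DESeq2 and 0 with limma. Palate LRC against nLRC gave 1 without the read minimum, as did the difference of oral LRC effects (1). Tongue against palate gave 2 with median-of-ratios scaling, 4 without the read minimum, 3 with the replicate block, 3 with DESeq2 and 0 with limma (1 as reported). Tongue against tail gave 1 with limma and 2 with only the groups compared (3 as reported). Tail bulge gave 3 without the read minimum (2 as reported). Leaving palate LRC replicate 1 out of fits whose comparisons do not use it was chosen after seeing the data and gave 3 members for tongue against tail. Leaving out a library gave 0 to 1 members for spinous LRC against nLRC, spinous against basal and granular against spinous, 1 to 4 for back bulge, 1 to 1 for tail LRC, 2 to 2 for tail bulge, 0 to 3 for tongue against palate, 3 to 4 for palate against tail, 1 to 3 for tongue against tail, and 0 to 0 elsewhere. The causes were not tested. The replicate block changed no member's call in the comparisons where the numbers pair libraries. Bulge and cross-tissue comparisons were not taken as paired, although tail bulge with tail nLRC (0.404, 0.125 and 0.183) and back bulge with spinous nLRC (0.346, 0.164 and 0.141) correlated over 0.1, nor were oral groups, with palate LRC and nLRC at 0.283 and tongue LRC and nLRC at 0.0471.

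Over all genes the calls moved more than 1.5 times in several settings that keep all libraries, for back basal LRC against nLRC from 0 with limma to 227 with DESeq2 (39 as reported, 95 with the block), for granular against spinous from 211 with limma to 1555 with only the groups compared (664 as reported, 1197 with the block), for spinous against basal from 578 with limma to 2736 with only the groups compared, for the difference of back LRC effects from 0 with limma to 1106 with only the groups compared (65 as reported, 386 with the block), for tail LRC from 446 with limma to 2128 without the read minimum (690 as reported, 2055 with the block), for spinous LRC from 1062 with limma to 3895 with only the groups compared (2571 as reported), for back bulge from 2239 with limma to 5111 with the block (4353 as reported), for tongue against palate from 588 with limma to 2453 without the read minimum (1436 as reported), and without the read minimum for palate LRC (269 against 0), tongue LRC (236 against 1) and the difference of oral LRC effects (237 against 0). Leaving out a library moved these counts too, with 1590 for granular against spinous without back bulge replicate 2, 342 for tail LRC without nLRC replicate 1 and 1601 for palate LRC without nLRC replicate 1. The group with the highest level was the same by CPM and TPM for 4 of 6 members, all but Krt7 and Krt20. Few reads limit Krt18 in skin and Krt20 everywhere.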
